A study of Mus musculus with 11 samples.

Results

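The tissue described here is the cerebral cortex on the non-infarcted side of the brain, remote from the lesion, 1 m after a photothrombotic stroke of the left parietal cortex in mice. It was measured in 2 libraries, 1 from untreated animals and 1 from animals given levetiracetam (LEV), and both were compared with the 1 library of naive cortex, so 3 of the 11 libraries of the series enter the comparison. A gene was taken as different only when both 1 m libraries lay on the same side of naive. Of 22377 genes in the table, 15934 had a mean of at least 1 CPM (tags scaled to the library total) over the 3 libraries and were compared.

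In this model light through the skull activates rose bengal, an injected dye, and the vessels in its path clot, which leaves a small cortical infarct with a sharp border. The opposite hemisphere is not illuminated, yet it is linked to the lesion by fibres of the corpus callosum and shares its blood, hormones and, where seizures follow, its network activity. Levetiracetam is an anti-seizure drug that binds SV2A, a protein of synaptic vesicles. Glucocorticoids, the adrenal stress hormones, act on all cell types of the cortex through a receptor that binds DNA and drives a well known set of target genes. Immediate early genes are transcribed within minutes of neuronal firing. Cap analysis of gene expression (CAGE) counts short tags at the capped 5′ ends of transcripts, so a gene's value reflects the use of its start sites.

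The mice were C57BL/6N males. The design text gives ages of 8-10 and 65-85 weeks and does not say which library is from which age. Naive cortex was untreated, with no photothrombosis. All other libraries are from mice that received rose bengal (35 mg/kg) and light of 565 nm for 30 minutes. These libraries come in pairs, 1 per side of the brain, from 5 states: 7 d and 1 m after the stroke, each without and with LEV, and 2 m with LEV withdrawn for 2 weeks. For LEV the design text has another schedule (drinking water at 5 mg/mL for 2 weeks from 1 month on, then 1 week without drug), and it describes EEG electrodes and low doses of pentylenetetrazol, a convulsant, without assigning them to libraries. RNA came from whole cortex. The labels do not state how many mice stand behind a library, whether the sides share a mouse, or the time of day, and each group is 1 library. P-values therefore measure the spread between these libraries, which may be technical. In bulk tissue, fewer cells of a type and less RNA per cell cannot be told apart.

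Library depth was 12928291 tags for naive, the shallowest of all 11 libraries, 13769133 for 1 m and 21000367 for 1 m with LEV, the deepest, and 3 tags correspond to 0.143 to 0.232 CPM. Cortical identity was clear in all 3: Slc17a7, the vesicular glutamate transporter of cortical projection neurons, had 743, 861 and 1738 CPM in naive, 1 m and 1 m with LEV, and Slc1a2, the astrocyte glutamate transporter, 1302, 1203 and 1322 CPM. The naive library and the 1 m LEV library stood apart from the other 9 in Ttr, a marker of the choroid plexus, and the 1 m libraries fell into a pattern of 3 against 1 described with the genes below. The labels name no batch or date.

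Promoter sequences of 5 genes on which the results turn are shown first, from RefSeq on GRCm38.p6, each running from 250 bases before to 50 bases after the annotated start, 5′ to 3′ on the gene's strand. The first is Sgk1, among the lower genes and a classical glucocorticoid target, at chr10:21993640-21993939 (+ strand), the 5th of its 6 entries. Capitals mark a complete palindromic glucocorticoid response element, the half-sites AGAACA and TGTTCT with 3 bases between them, searched on both strands. It spans 189 to 175 bases before the start.
Sgk1: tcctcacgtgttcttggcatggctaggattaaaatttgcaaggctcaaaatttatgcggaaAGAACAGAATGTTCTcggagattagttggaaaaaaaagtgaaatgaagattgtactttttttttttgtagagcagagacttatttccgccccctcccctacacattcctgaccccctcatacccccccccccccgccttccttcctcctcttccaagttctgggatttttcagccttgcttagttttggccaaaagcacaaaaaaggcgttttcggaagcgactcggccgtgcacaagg
This full palindrome was in 3 of 32851 promoter windows (0.00913%), and among the 14 glucocorticoid response genes described below, 13 have an entry and only Sgk1 held it. A match in letters is a description of the sequence and not evidence of binding, and elements outside the windows were not searched.

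The next 4 are examples picked from the genes that stood among the highest and lowest against naive. CpGs were not counted in the windows of the other genes, so these counts describe the 4 genes only. Capitals mark each CpG. Mosmo, a regulator of Hedgehog signalling, lies at chr7:120677370-120677669 (+ strand), and Ube2q1, a ubiquitin-conjugating enzyme, at chr3:89773359-89773658 (+ strand). Both were among the highest, and their windows held 39 and 44 CpGs. Plin4, a lipid droplet coat protein, lies at chr17:56109733-56110032 (- strand), and Hif3a, a hypoxia-inducible factor subunit, at chr7:17062378-17062677 (- strand). Both were among the lowest, with 7 and 14 CpGs.
Mosmo: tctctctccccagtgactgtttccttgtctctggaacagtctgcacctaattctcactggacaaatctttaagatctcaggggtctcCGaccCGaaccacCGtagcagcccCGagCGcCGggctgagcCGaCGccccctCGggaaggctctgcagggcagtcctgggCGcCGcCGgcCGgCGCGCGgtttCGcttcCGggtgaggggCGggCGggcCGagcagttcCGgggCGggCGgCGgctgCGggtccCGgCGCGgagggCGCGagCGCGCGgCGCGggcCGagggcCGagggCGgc
Ube2q1: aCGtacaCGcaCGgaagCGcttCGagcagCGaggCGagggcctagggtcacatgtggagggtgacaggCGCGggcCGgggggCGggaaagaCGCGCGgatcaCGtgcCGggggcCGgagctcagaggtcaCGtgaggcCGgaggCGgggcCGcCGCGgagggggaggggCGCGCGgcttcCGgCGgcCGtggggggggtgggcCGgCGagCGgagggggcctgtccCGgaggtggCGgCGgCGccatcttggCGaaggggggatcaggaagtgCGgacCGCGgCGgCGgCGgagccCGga
Plin4: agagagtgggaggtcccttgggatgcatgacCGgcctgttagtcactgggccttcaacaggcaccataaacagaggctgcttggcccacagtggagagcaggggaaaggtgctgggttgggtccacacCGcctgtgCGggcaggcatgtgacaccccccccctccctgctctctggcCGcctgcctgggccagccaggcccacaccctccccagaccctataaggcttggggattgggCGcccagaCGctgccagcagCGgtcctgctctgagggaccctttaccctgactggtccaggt
Hif3a: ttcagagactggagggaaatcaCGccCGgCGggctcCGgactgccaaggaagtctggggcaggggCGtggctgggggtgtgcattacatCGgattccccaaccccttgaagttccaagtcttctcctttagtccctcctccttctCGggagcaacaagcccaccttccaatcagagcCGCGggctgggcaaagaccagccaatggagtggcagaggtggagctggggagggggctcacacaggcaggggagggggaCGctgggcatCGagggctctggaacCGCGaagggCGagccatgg

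Against naive, the remote cortex at 1 m showed few differences that both libraries shared. At least 2-fold on the log2(CPM + 1) scale, 3 genes were higher in both (0.0188% of those compared) and 6 were lower (0.0377%). Between the 1 m libraries themselves 76 genes (0.477%) were as far apart. That is a single contrast, while a shared difference must pass in both libraries, so these counts are not alike. The like counts, from 1 library alone against naive, are given with the processing settings below. The 3 higher genes were Mosmo, Foxc1 and Ube2q1. The 6 lower genes were Dppa5a, Plin4, Hif3a, Gm19439 and the overlapping pair Glis1 and Gm24804, whose tags are the same. At least 4-fold, only Dppa5a was lower in both (0.00628%) and none was higher, and Rny1 and Ttr set the 1 m libraries apart (2 genes, 0.0126%). Dppa5a passed the filter of 1 CPM through naive alone, so its lower value was fixed in advance. The same holds for some other sparse genes counted as lower, such as Maff. At least 1.5-fold, 102 genes were higher (0.64%) and 60 lower (0.377%). The single contrast between the 1 m libraries separated 727 (4.56%). By sign alone, 3877 genes (24.3%) were higher in both, 5987 (37.6%) lower in both and 6070 (38.1%) split. That excess of lower genes depended on scaling: 39.3% of the genes on one side were higher as deposited, 50% with the median gene of each library set to 0 and 50.3% with TMM factors.

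A limma test of the 2 libraries against naive called 68 of 15934 genes (0.427%) at an adjusted p below 0.05, 67 of them with both libraries on one side (0.42%). Of these, 51 were higher in both (0.32%), and 16 were lower in both (0.1%). The other call, Rny1, a small noncoding Y RNA, was split at 20.5, 23.6 and 0.143 CPM. The test has 1 residual degree of freedom, and its spread was in effect common to all genes, so a call rests on the size of the mean difference, and the naive library is assumed to vary like the pair. With the spread taken over the non-infarcted libraries of all times, no gene was called (725 had an unadjusted p below 0.05). The smallest adjusted p of that limma fit was 0.0792, for both Plin4 and Dppa5a. The edgeR quasi-likelihood test on recovered tags called 61, with 45 higher and 16 lower. Calls below are those of the first test and hold only under its assumption.

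**Figure D1:**
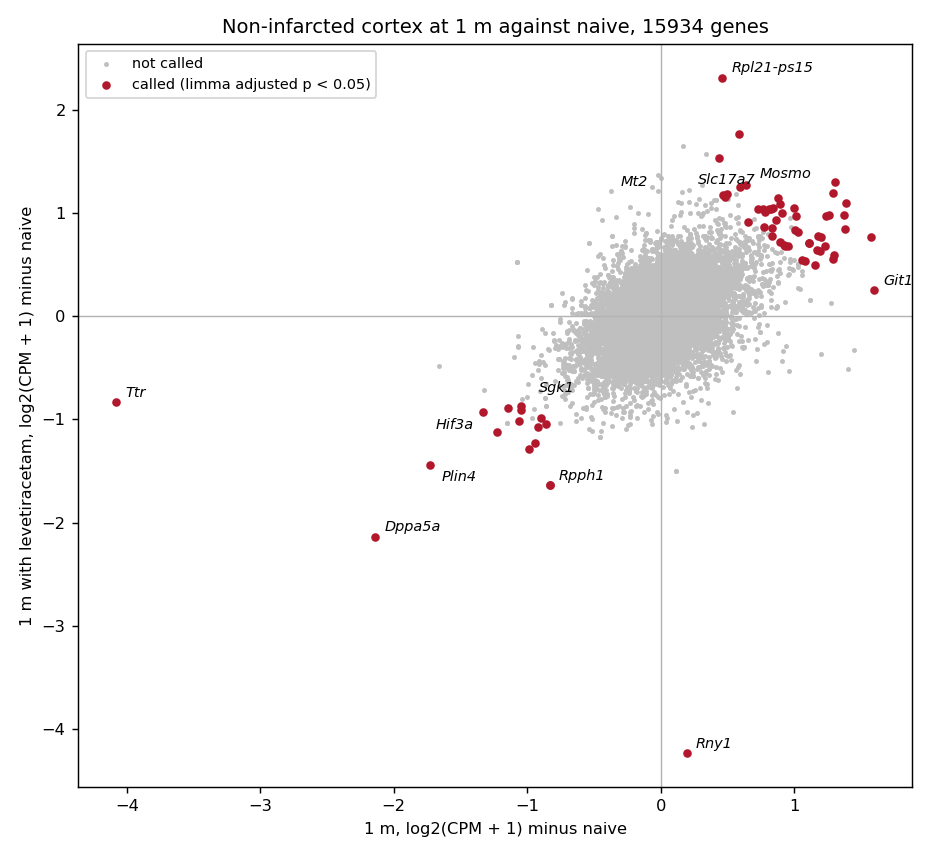
Each point is 1 of 15934 genes, with its log2(CPM + 1) difference from naive in the 1 m library (horizontal) and in the 1 m library with LEV (vertical), both from the non-infarcted side. The 68 called genes (red) lie mostly in the upper right and lower left, and Ttr, Rny1, Git1 and Rpl21-ps15 are called although the libraries differ widely from each other.

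Genes that respond to glucocorticoids were lower than naive in the remote cortex at 1 m. Of the 14 genes in the list, 12 were lower in both 1 m libraries (37.6% of all genes were), none was higher in both and 2 were split. Of them 6 passed the test and fell (Plin4, Hif3a, Zbtb16, Tsc22d3, Cdkn1a and Sgk1), against 0.1% of all genes, and the same 6 were at least 1.5-fold lower in both. The median difference over the list was -0.61 on the log2 scale, against -0.03 over all genes compared.

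Plin4 had 16.5 CPM in naive cortex, 4.28 at 1 m and 5.43 at 1 m with LEV. Both 1 m libraries lay at about the same low level, well under naive. The ratios to naive were 0.260 (exact 95% interval on tags 0.192 to 0.348, counting error only) and 0.329 (0.260 to 0.416), and the limma difference was -1.58 (standard error 0.24, adjusted p = 4.34e-07). Plin4 was low in every library from a stroke mouse, at 3.34 to 6.87 CPM in the other 8. The naive library alone was high.

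Hif3a had 12.9 CPM in naive, 4.94 at 1 m and 5.38 at 1 m with LEV (limma adjusted p = 0.00159). Zbtb16, a zinc finger transcription factor, had 63.0, 32.9 and 29.5 CPM in the same order (limma adjusted p = 0.00175). For both genes the pair at 1 m agreed closely, and naive lay apart.

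Tsc22d3, which encodes the anti-inflammatory mediator GILZ, had 82.4 CPM in naive, 43.8 at 1 m and 41.1 at 1 m with LEV (limma adjusted p = 0.00375). Sgk1, a kinase that regulates ion channels and transporters, had 100.01, 47.9 and 54.0 CPM (limma adjusted p = 0.00296). Cdkn1a, the cell cycle inhibitor p21, had 23.4, 10.0 and 12.1 CPM (limma adjusted p = 0.00334). In each of the 3 genes the level at 1 m was close to 1 value in both libraries and well under naive.

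Fkbp5, a chaperone that restrains the glucocorticoid receptor, was also lower, at 41.4 CPM in naive, 20.8 at 1 m and 27.5 at 1 m with LEV, but was not called (limma adjusted p = 0.0572). The members lower in both by less were Nfkbia, Ddit4, Errfi1, Pdk4 and Per1. Per1, a clock gene that glucocorticoids also induce, had 87.8, 75.9 and 63.8 CPM. The split members were the metallothioneins, zinc-binding proteins. Mt2 had 224 CPM in naive, 173 at 1 m and 521 with LEV, and Mt1 had 568, 494 and 1059 CPM, so the LEV library was high and the other below naive. Outside the list, Arrdc2, an arrestin domain protein, fell from 19.8 CPM to 7.26 and 9.90 (limma adjusted p = 0.000985).

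**Figure D2:**
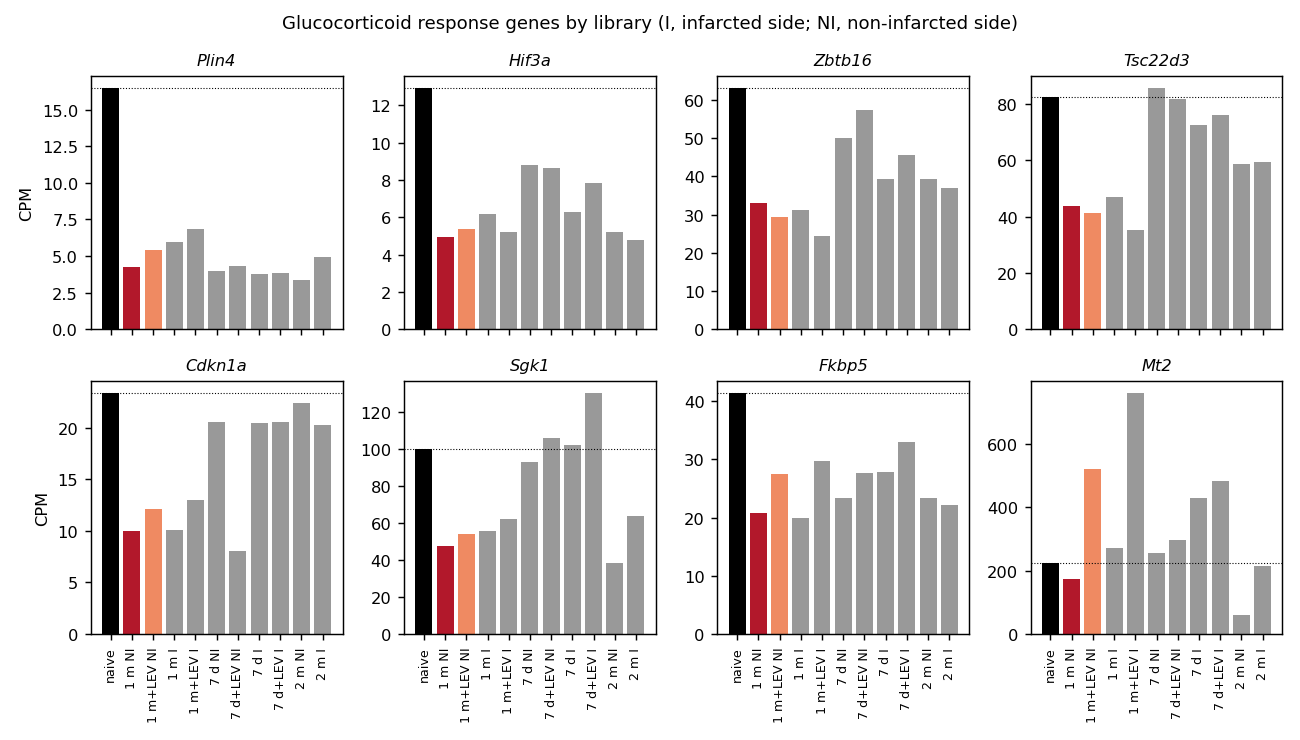
Bars are CPM of 8 glucocorticoid response genes in each of the 11 libraries, with naive in black, the non-infarcted side (NI) at 1 m in red and at 1 m with LEV in orange, and the other libraries in grey. The dotted line is naive. Plin4 is below naive in all 10 other libraries, Sgk1 and Tsc22d3 are near naive at 7 d and lower at 1 m, and Mt2 is high in both 1 m LEV libraries.

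The difference of these genes from naive was not the same at 7 d. Tested between times within the non-infarcted side, where naive does not enter, 952 of 15931 genes were higher at 1 m than at 7 d (5.98%) and 1027 were lower (6.45%). Of the 14 glucocorticoid response genes, 6 were lower at 1 m than at 7 d (Tsc22d3, Sgk1, Zbtb16, Hif3a, Per1 and Pdk4) and none higher, with a median of -0.31 against -0.06 over all genes. Hif3a, Zbtb16, Tsc22d3 and Sgk1 were also among the 12 lowest against naive through the same 1 m libraries, so this count is not separate from that one. This test also has 1 residual degree of freedom and borrows its spread from other genes. Sgk1 had 93.3 and 106 CPM at 7 d without and with LEV, near its naive level, and the difference of 1 m from 7 d was -0.96 (standard error 0.14, limma adjusted p = 0.000628). Tsc22d3 had 85.6 and 81.6 CPM at 7 d and differed by -0.96 (limma adjusted p = 0.00061). The times did not overlap for either gene.

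Plin4 and Fkbp5 did not follow that order. At 7 d Plin4 had 3.95 and 4.31 CPM and Fkbp5 23.3 and 27.6 CPM, as low as at 1 m, and the limma differences between times were 0.19 (adjusted p = 0.569) and -0.08 (adjusted p = 0.767). Hif3a was intermediate at 7 d, at 8.78 and 8.67 CPM. Cdkn1a was 20.6 and 8.03 CPM at 7 d, so those libraries disagreed. The lower level at 1 m was shared by both sides: on the infarcted side at 1 m without and with LEV, Sgk1 had 55.7 and 62.3 CPM, Tsc22d3 47.0 and 35.2 CPM, and Zbtb16 31.2 and 24.5 CPM. At 2 m on the non-infarcted side Sgk1 had 38.7 CPM, Tsc22d3 58.8 CPM and Plin4 3.34 CPM.

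Clock genes, which depend on the time of day and partly on glucocorticoids, are given beside this group. Of 14 clock genes, 2 were higher in both, 5 lower in both and 7 split, with a median of -0.07 and none called. Over all genes compared, 24.3% were higher in both and 37.6% lower in both. Ciart had 20.7, 16.0 and 11.95 CPM, and Nr1d1 91.8, 82.6 and 61.1 CPM, in naive, 1 m and 1 m with LEV. Between times 4 of the 14 clock genes, Per1, Per2, Ciart and Bhlhe41, were called lower at 1 m than at 7 d, against 6.45% of all genes. Their part in the glucocorticoid result was not tested.

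Markers of the choroid plexus, the epithelium that makes cerebrospinal fluid, were also lower than naive, though less so in the LEV library. All 7 of the 11 markers that could be compared were lower in both 1 m libraries (37.6% of all genes were). The median was -0.63 (-1.05 in the untreated library alone and -0.30 in the LEV library alone). Called were 2, Ttr and Clic6, while 0.1% of all genes were called and lower in both. Ttr, the transthyretin of that epithelium, had 349.7 CPM in naive, 19.8 at 1 m and 195 with LEV, and 9.79 to 24.7 CPM in the other 8 libraries. Naive and the 1 m LEV library were therefore both far above the rest, and the 1 m libraries differed from each other more than the LEV library differed from naive. Clic6, a chloride channel protein, had 8.12, 3.41 and 3.86 CPM. Summed over the list, the markers had 480 CPM in naive, 112 at 1 m and 306 at 1 m with LEV, against 110 to 171 CPM in the other 8 libraries. Ttr and Enpp2 together made up most of that sum in naive and in both 1 m libraries, so it largely restates their values. The sparse markers Otx2 and Folr1 had 0.696 and 1.70 CPM in naive, 0.145 and 0.290 at 1 m, and 0.667 and 1.19 with LEV, so the LEV library was nearer to naive. Enpp2, which other cells also express, had 109, 82.9 and 97.5 CPM and was highest at 144 CPM on the infarcted side at 2 m. What part this tissue has in the other differences from naive was not tested.

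Red blood cell markers were lower in both at 3 of 3 genes compared, and none was called. Hbb-bs, adult beta-globin, had 132, 82.7 and 79.7 CPM, and Hbb-bt 25.4, 15.03 and 15.05 CPM (limma adjusted p = 0.143 and 0.132). Of 10 striatal markers 7 were lower in both and none higher, with a median of -0.30. Their sum was 818, 764 and 609 CPM, within the 568 to 1065 CPM of the other 8 libraries.

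Smooth muscle markers split the pair. Acta2, the actin of arterial muscle, had 18.1 CPM in naive, 49.5 at 1 m and 12.4 at 1 m with LEV. Myh11, its myosin, had 6.96, 20.8 and 5.33 CPM, and Tagln 5.96, 14.96 and 4.38 CPM. For each of them the untreated 1 m library was high and the LEV library slightly under naive, so none counts as a difference of the remote cortex at 1 m.

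Among the other lower genes, Xdh, the xanthine oxidoreductase of purine breakdown, had 10.1, 4.58 and 3.52 CPM in naive, 1 m and 1 m with LEV (limma adjusted p = 0.0038). Paqr5, a membrane progestin receptor, had 12.1, 6.25 and 5.38 CPM (adjusted p = 0.0292 in limma). Nostrin, an endothelial protein that binds nitric oxide synthase, had 5.80, 2.54 and 1.90 CPM. The RNase P RNA gene Rpph1 had 47.6, 26.3 and 14.6 CPM, and the overlapping Ccnb1ip1 has the same tags, so these are 1 measurement. Rpph1 was at 4.22 to 30.5 CPM in the other 8 libraries, so naive was the highest of all 11.

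Dppa5a, a gene of pluripotent cells, had 44 tags in naive cortex (3.40 CPM) and 0 in the other 10 libraries. It entered the comparison through naive alone, so its place among the lower and called genes follows from the filter. With 3 tags as the floor per library it was at least 15.6-fold lower at 1 m and at least 23.8-fold lower at 1 m with LEV.

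Immediate early genes went the other way. Of 18 members, 12 were higher than naive in both 1 m libraries (24.3% of all genes were), 2 were lower and 4 split. The median was 0.33 against -0.03 over all genes, and 2 members, Egr2 and Btg2, were at least 1.5-fold higher in both. Only Egr2 was called, a zinc finger factor induced by growth signals and firing, while 0.32% of all genes were called and higher in both. Egr2 had 4.87 CPM in naive, 9.30 at 1 m and 11.05 at 1 m with LEV (limma difference 0.92, standard error 0.24, adjusted p = 0.036). The edgeR test did not call it (adjusted p = 0.0697).

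Fos, the prototype of the class, had 7.43 CPM in naive, 11.4 at 1 m and 12.4 with LEV and was not called (limma adjusted p = 0.519). Btg2, an antiproliferative gene, had 10.8, 17.4 and 18.5 CPM. Egr1 had 225, 316 and 292 CPM. In these 3 genes both 1 m libraries were above naive by a similar amount. Npas4, which neurons induce on calcium entry, had 9.20, 11.04 and 15.4 CPM. Arc, a synaptic plasticity gene, was at naive level with 96.3, 96.6 and 93.2 CPM.

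Between times 8 of the 18, against 6.45% of all genes, were called lower at 1 m than at 7 d (Arc, Egr1, Egr2, Egr4, Fos, Junb, Nr4a1 and Nr4a3), none higher, and the median was -0.44 against -0.06 over all genes. Fos had 20.7 and 20.9 CPM at 7 d without and with LEV, and differed by -0.76 (limma adjusted p = 0.006). Junb had 85.2 and 87.8 CPM at 7 d, against 41.5 and 47.4 CPM at 1 m and 35.7 CPM in naive. For Fos, Egr1, Egr2 and Junb, 1 m lay between naive and 7 d. Arc at 7 d was 196 CPM without LEV and 120 CPM with LEV, so its 7 d libraries disagreed in size. Btg2 was lower at 7 d than at 1 m, with 13.4 and 11.96 CPM, and was not called (limma adjusted p = 0.0629).

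**Figure D3:**
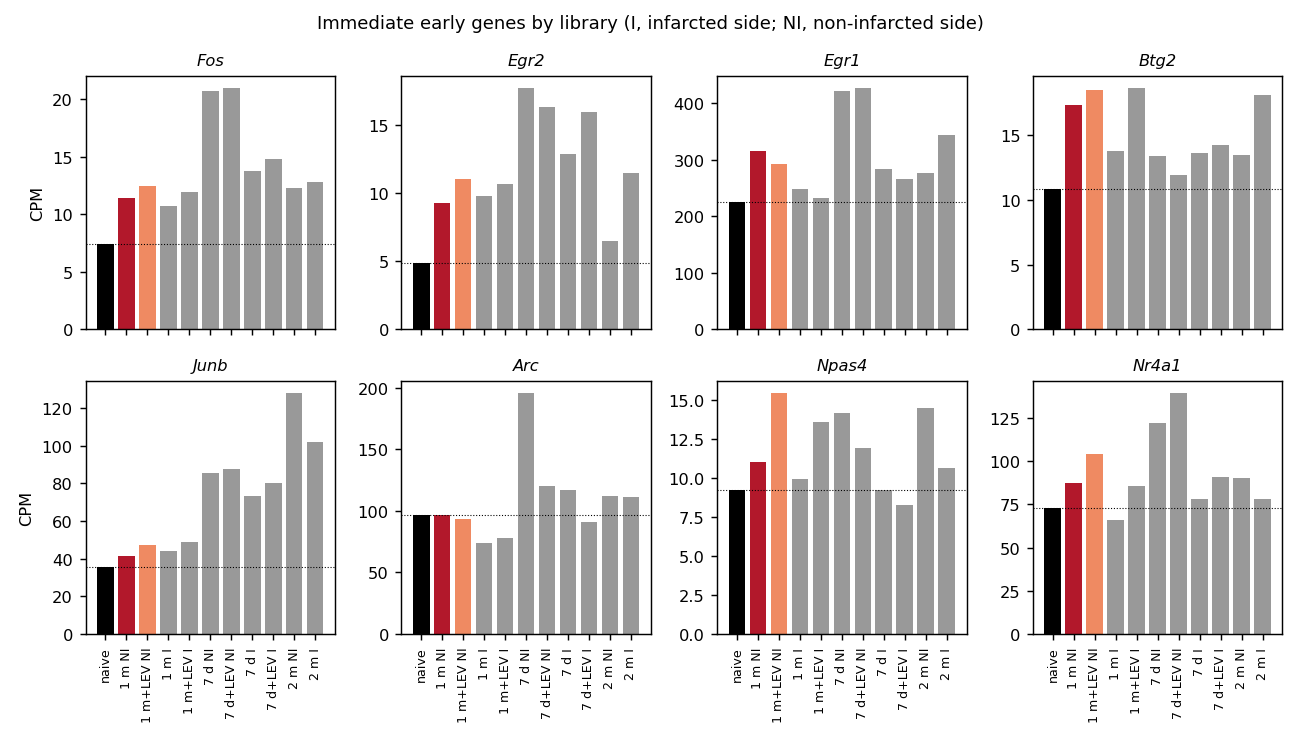
Bars are CPM of 8 immediate early genes in the 11 libraries, coloured as in the plot of glucocorticoid response genes, and the dotted line is naive. Fos, Egr2 and Egr1 are above naive at 1 m on the non-infarcted side and highest at 7 d on that side, while Arc at 1 m is at the naive level.

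The 12 genes highest against naive with a mean of at least 5 CPM were Mosmo, Foxc1, Ube2q1, Apcdd1, Ski, Clk2, Rnd2, Pabpn1, Fam193b, Fbxo45, Rhoq and Ptpn12, and all 12 were called. Mosmo had 22.7 CPM in naive, 57.6 at 1 m and 57.3 at 1 m with LEV (limma difference 1.30, standard error 0.21, adjusted p = 1.62e-06). Both 1 m libraries were high by the same amount. Ube2q1 had 44.6, 119 and 96.6 CPM (limma adjusted p = 9.75e-06). Clk2, a kinase of splicing factors, had 27.8, 73.9 and 55.8 CPM, and Pabpn1, the nuclear poly(A) binding protein, 142, 335 and 279 CPM.

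Foxc1, a transcription factor of meninges and vessel mural cells, had 4.18, 11.7 and 10.9 CPM, and Apcdd1, a Wnt inhibitor, 9.13, 19.2 and 20.0 CPM. Ski, a repressor of TGF-beta signalling, had 17.1, 42.3 and 34.7 CPM. Rnd2 and Rhoq, both small GTPases, had 31.8, 65.3 and 63.4 CPM and 15.9, 30.1 and 36.5 CPM. Each of these genes was well above naive in both libraries. Ski was lowest in naive of all 11 libraries, with 32.4 and 38.5 CPM at 2 m on the non-infarcted and infarcted side. Foxc1 at 7 d had 10.2 and 9.97 CPM on the infarcted side without and with LEV. On the non-infarcted side at 7 d it had 4.23 and 3.35 CPM. Fbxo45, a ubiquitin ligase subunit of synapses, had 35.3, 66.5 and 76.1 CPM. Ptpn12, a tyrosine phosphatase, had 17.3, 32.3 and 33.9 CPM.

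Most of these genes shared a pattern over the 4 libraries of 1 m. Mosmo had 20.5 CPM on the infarcted side without LEV, at the naive level, and 50.03 CPM on the infarcted side with LEV, near both non-infarcted libraries. Ube2q1 had 45.7 and 86.0 CPM on the infarcted side without and with LEV, Clk2 28.1 and 58.5 CPM, and Pabpn1 136 and 265 CPM. So 3 of the 4 libraries were high and the infarcted side without LEV was like naive. Foxc1 and Apcdd1 differed from that pattern, with 9.41 and 14.6 CPM on the infarcted side without LEV, above naive.

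At 1 m that pattern held over the whole set of 102 genes at least 1.5-fold higher. Their median difference from naive on the infarcted side was -0.02 without LEV and 0.70 with LEV. The infarcted libraries did not choose these genes, but the labels do not say whether the sides share a mouse. On the infarcted side at 1 m, 100 of the 102 (98.0%) were higher with LEV than without, with a median difference of 0.69, against 7369 of all 15934 genes (46.2%) and a median of -0.03. On the non-infarcted side at 7 d the count was 88 of 102 (86.3%), with a median of 0.27, against 48.2% of all genes. On the infarcted side at 7 d it was 80 of 102 (78.4%) against 64.8%. At 7 d the set was not above naive, so the pattern of 1 m was absent there. Its medians were -0.28 and -0.02 on the non-infarcted side and -0.24 and -0.14 on the infarcted side, without and with LEV. Each of these comparisons is 1 library against 1, with no replicate check.

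**Figure D4:**
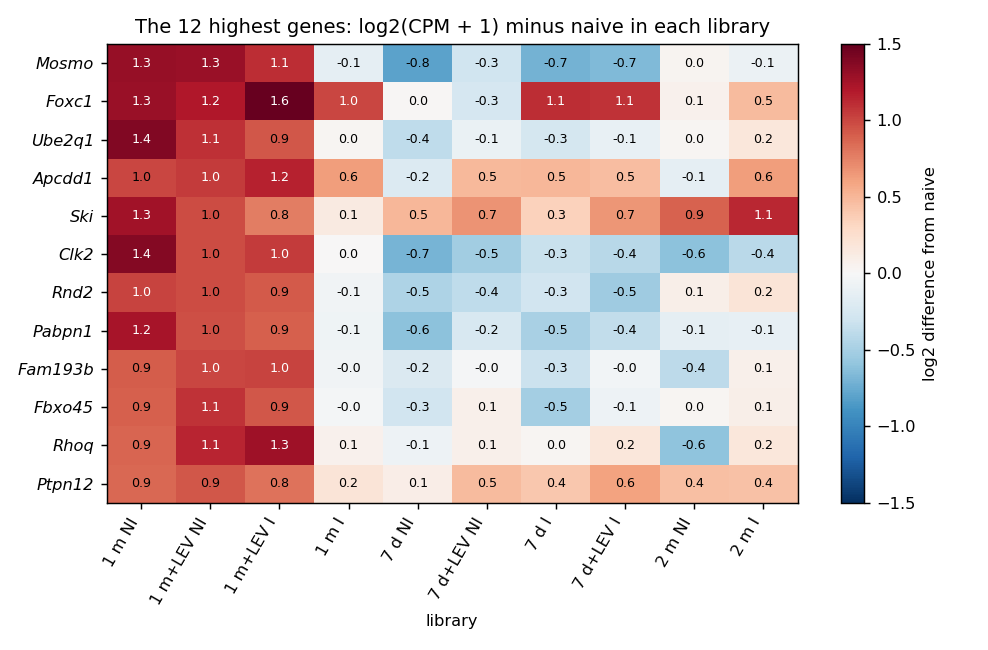
Cells are log2(CPM + 1) differences from naive of the 12 highest genes (rows) in the 10 stroke libraries (columns, I infarcted and NI non-infarcted side), red above and blue below naive, on a scale cut at 1.5 either way. The first 3 columns are red for all 12 genes, the infarcted side at 1 m is near 0 for 10 of them, and Mosmo, Clk2 and Pabpn1 are below naive at 7 d.

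The composition of 5′ ends, where CAGE tags begin, is given beside this set. Over the first 100 bases of annotated transcripts the median GC content was 65.3% for the 102 higher genes (100 with a value), 58.5% for the 60 lower genes (58 with a value) and 59.4% for all genes compared. The median number of CpGs there was 9, 4 and 6. These groups also differed in abundance, with medians of 37.0, 3.33 and 21.7 CPM in the same order. Median transcript lengths were 2000, 1538 and 1405 bases. Over 5 groups of genes of about equal size by GC content, 0.318%, 0.317%, 0.355%, 0.73% and 1.49% of genes, from the lowest to the highest, were at least 1.5-fold higher in both. The same comparison over promoter windows was not made. Of the higher genes 75.5% have an entry there, and of all genes compared 72.1%. The part of base composition in these differences was not tested.

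**Figure D5:**
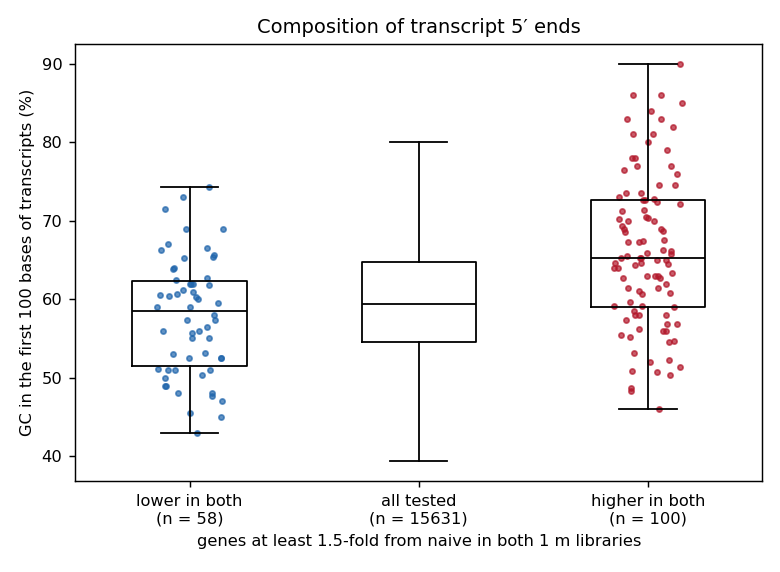
Boxes show the median, quartiles and 1.5 interquartile ranges of GC content (%) in the first 100 bases of transcripts for the 58 lower genes, the 15631 genes with a value and the 100 higher genes, with single genes as points for the outer groups. The higher genes have the highest median, 65.3%.

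Neuronal genes were near naive as groups. Of 13 excitatory neuron genes 5 were higher in both and 6 lower, with a median of -0.03, and of 14 inhibitory neuron genes 1 was higher and 7 lower, with a median of -0.04. None was called. Sv2a, the target of levetiracetam, had 137, 140 and 142 CPM in naive, 1 m and 1 m with LEV. Sst, the somatostatin of an interneuron class, had 626, 569 and 575 CPM, and Pvalb, the calcium buffer of fast-spiking interneurons, 134, 129 and 113 CPM. Slc17a7 was high only in the LEV library (values above), and on the infarcted side it was 615 CPM without and 1516 CPM with LEV, so this gene went with the LEV label on both sides.

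Of 12 GABA-A receptor subunits, the channels of fast inhibition, 5 were higher in both, 2 lower and 5 split, with a median of 0.08, and none was called against naive. Gabra4, an alpha subunit of extrasynaptic receptors, had 75.7 CPM in naive, 82.5 at 1 m and 85.0 at 1 m with LEV, slightly above naive in both.

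The chloride transporters that set the direction of GABA currents also stayed short of a call. Slc12a2, the importer NKCC1, had 20.2 CPM in naive, 29.4 at 1 m and 40.8 at 1 m with LEV (limma adjusted p = 0.0689). Its difference from 7 d, where it had 22.6 and 22.7 CPM, was called at 0.59 (limma adjusted p = 0.0231). Slc12a5, the neuronal exporter KCC2, was split at 408, 342 and 459 CPM.

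No gene of the glial and immune lists below was called against naive on the remote side. Gfap, the filament of reactive astrocytes, had 109 CPM in naive, 107 at 1 m and 158 at 1 m with LEV, against 384 and 444 CPM on the infarcted side at 1 m. Lgals3, the galectin of phagocytic microglia and macrophages, had 1.31, 1.67 and 2.90 CPM, against 87.2 and 18.2 CPM on the infarcted side. Both remote libraries lay far below both infarcted ones for each gene, and the LEV library was above naive for both genes. Csf3r, a receptor of neutrophils, had 2.40, 5.37 and 4.62 CPM, at least 1.5-fold higher in both and not called (limma adjusted p = 0.223). It was the only 1 of 4 neutrophil markers compared that was higher in both. The other 3 were split, among them S100a8 with 5.65, 7.48 and 2.71 CPM.

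Of 10 reactive astrocyte genes 2 were higher than naive in both, 1 lower and 7 split, with a median of 0.08. Of 13 disease-associated microglia genes the counts were 6, 2 and 5, with a median of 0.07, and of 11 complement genes 1, 3 and 7, with a median of -0.01. None of these was called against naive. Tested between the sides at 1 m, 130 of 16098 genes were higher on the infarcted side (0.808%) and 8 were lower (0.0497%), among them 6 of the 10 reactive astrocyte genes, 11 of the 13 disease-associated microglia genes and 6 of the 11 complement genes, all higher. That test depended on single libraries and settings, with no call when LEV was left out of the model (782 had an unadjusted p below 0.05). Interferon response genes were higher than naive in both at 7 of 14, lower at 3 and split at 4, with a median of 0.17 and none called.

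Oligodendrocyte precursor genes leaned lower. Of 10 members, 8 were lower in both (37.6% of all genes were), none higher and 2 split, with a median of -0.28, and none was called. Counts by sign depend on scaling, and with LEV Lhfpl3 and Sox6 differed from naive by only -0.04 and -0.03 on the log2 scale. Olig2, a transcription factor of the lineage, had 14.6, 9.80 and 10.8 CPM, and Pdgfra, the growth factor receptor of precursors, 19.8, 15.8 and 15.6 CPM. For both genes the 1 m libraries agreed and lay under naive. Between times 3 of the 10 (Olig2, Pdgfra and Gpr17) were called lower at 1 m than at 7 d, against 6.45% of all genes, and none higher. At 7 d on that side the levels were 19.2 and 20.7 CPM for Olig2 and 24.0 and 22.7 CPM for Pdgfra, and the differences of 1 m from 7 d were -0.89 (limma adjusted p = 0.00212) and -0.54 (limma adjusted p = 0.0294). Cspg4, the NG2 proteoglycan, was not called and went the other way, with 9.20 CPM in naive, 9.22 and 5.62 at 1 m, and 5.17 and 4.47 at 7 d. Mature myelin genes were mixed, with 2 of 14 higher in both, 6 lower and 6 split; Mbp, myelin basic protein, had 1740, 1476 and 1356 CPM.

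Other groups differed little. Of 15 cholesterol synthesis genes 1 was higher in both and 10 lower, with a median of -0.12, of 13 heat shock genes 0 and 8, with a median of -0.09, and of 12 extracellular matrix genes 1 and 8, with a median of -0.17. None of them was called. Of the 18 respiratory chain genes 7 were higher in both and 4 lower. Atp5e, a subunit of ATP synthase, had 584, 760 and 925 CPM and was not called against naive, while at 7 d on the same side it had 243 and 252 CPM. For that gene the non-infarcted side at 7 d lay far below naive and at 1 m above it.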

How the data were processed

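CAGE tags of whole mouse cortex were counted in 11 libraries, 1 per group, and groups were taken from the labels. The deposited values are CPM, tags scaled by the authors to each library's total, for 22377 genes. Per the submitters' processing notes the build was GRCm38 and the tools were HISAT2 2.0.5, BWA 0.7.17 and DESeq2 1.20.0, with no role stated for each. Every value was a whole number of tags within 0.01, so tags were recovered and totals taken from them. Gene coordinates and transcripts are from GENCODE M21, which holds 22335 of the genes (99.8%). Overlapping genes whose tags differed by at most 5% in all libraries, at most 5 kb apart, were taken to share them (1133 genes).

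For each comparison, genes averaging 1 CPM or more entered limma 3.58.1 as log2(CPM + 1) (mean-variance trend, Benjamini-Hochberg over all of them) in R 4.3.3. The 1 m libraries were set against naive, and against 7 d or the infarcted side with LEV as a factor (1 residual degree of freedom each). Differences against naive share the 1 naive library. Folds in both libraries are on the log2(CPM + 1) scale, which understates changes of low genes. Ratio intervals are exact 95% intervals on tags and cover counting error only. Tests were checked on simulated data. Alternatives were a pseudocount of 0.25, no filter, a mean of at least 5 CPM, median centring, TMM factors, edgeR 4.0.16 on tags, another spread or no LEV term, other folds and leaving out libraries. Counting shared tags once, and side counts under other scalings, were added after seeing the data.

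Lists are described by counts and medians with no test. Named genes are the 12 highest and 12 lowest by the smaller of both differences at a mean of at least 5 CPM, up to 4 members per list, and a panel of 30. Members of the described lists beyond these, and Dppa5a, Nostrin, Glis1, Git1, Rpl21-ps15, Rny1, Cnr1 and the smooth muscle genes Acta2, Myh11 and Tagln, were picked with their values in view. A few members are counted in their lists but not reported here. The genes and the 46 lists were chosen with earlier results of these data known. Tables and plots were made with numpy 2.4.6, pandas 2.3.3 and matplotlib 3.10.9 in Python 3.11.15.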

Additional observations from a re-analysis of the deposited data

Results flagged for a closer look

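Differences from the naive library were tested between times and between sides, where naive cancels, with limma over all genes (log2 differences, adjusted p below 0.05). Each arm is 1 untreated and 1 LEV library, with 1 residual degree of freedom.

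The values below are for the 12 highest and 12 lowest genes against naive and the panel of 30. List members with a call, such as Junb, Egr1, Egr2, Per1, Pdk4, Olig2 and Pdgfra, are given in the text above. Between 1 m and 7 d on the non-infarcted side, 24 of these genes differed. The glucocorticoid response genes were lower at 1 m: Tsc22d3 by -0.96, Sgk1 by -0.96, Zbtb16 by -0.76 and Hif3a by -0.66. So were Xdh at -0.88, Paqr5 at -0.58, the astrocyte potassium channel Kcnj10 at -0.66, and the immediate early genes Fos at -0.76 and Arc at -0.68. Tsc22d3, Sgk1, Zbtb16, Hif3a, Xdh and Paqr5 are among the 12 lowest, chosen through the same 1 m libraries, so their direction here is no separate finding. The 12 genes highest against naive were all higher at 1 m than at 7 d, and since the same 1 m libraries chose them this is no separate finding: Mosmo 1.85, Clk2 1.79, Pabpn1 1.53, Ube2q1 1.48, Rnd2 1.42, Foxc1 1.36, Fbxo45 1.10, Fam193b 1.07, Rhoq 1.01, Apcdd1 0.88, Ptpn12 0.61 and Ski 0.54. Higher at 1 m were also Slc17a7 at 0.81, Slc12a2 at 0.59 and Ttr at 2.18, and for Slc17a7 and Ttr the LEV library was far above the untreated one.

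Between the sides at 1 m, 13 of these genes differed. Higher on the infarcted side were the microglial and phagocyte genes Lgals3 (3.67), Cd68 (1.60) and Aif1 (0.77), and the astrocyte genes Gfap (1.66), Serpina3n (1.62), Vim (1.25) and Aqp4 (0.64). The complement gene C4b (1.47), the antigen presentation gene B2m (1.03), the interferon-induced Ifitm3 (0.84), Mt2 (0.60) and Mbp (0.38) were also higher. Pvalb was lower, at -0.40, as was Egr1 of the immediate early list, at -0.33 (limma adjusted p = 0.0422).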

How the results depend on the processing

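No paired analysis was possible because each group is 1 library and all carry the same replicate number, so no replicate block can be formed. The LEV factor of the side test pairs the sides within each state at 1 m, and its removal is given below. Against naive, leaving out a 1 m library leaves no residual degree of freedom, so that test was not run. The 68 calls became 0 with no expression filter (763 with an unadjusted p below 0.05 in limma) and 0 with a spread pooled over the non-infarcted libraries. They stayed between 46 and 92 under a pseudocount of 0.25, a mean of at least 5 CPM, median centring, TMM factors, edgeR and shared tags counted once.

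The 3 genes at least 2-fold higher in both became 9 with a pseudocount of 0.25, 5 with median centring, 8 with TMM factors, 102 at 1.5-fold, 0 at 4-fold, and 38 to 53 from 1 library alone (38 without the 1 m LEV library, 53 without the other). The 6 lower genes became 17 with a pseudocount of 0.25, 3 at a mean of at least 5 CPM, 60 at 1.5-fold, 1 at 4-fold (Dppa5a), and 23 to 33 from 1 library alone.

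The 1979 calls between 1 m and 7 d were 702 to 2907 without 1 library, lowest without the untreated 7 d library and 1234 without the 7 d LEV library. The 138 calls between sides were 306 with a pseudocount of 0.25, 39 at a mean of at least 5 CPM, 16 with median centring, 68 with TMM factors, 385 in edgeR, 0 with no LEV term, and 89 to 671 without 1 library (89 without the untreated infarcted library, 671 without the infarcted LEV library, 90 without the untreated non-infarcted library). Fewer genes or samples enter the stricter filter and the left-out fits, and for the other settings the cause was not tested. Over 198 named genes and 5 alternatives each, 877 of 990 values moved by less than the spread of the pair, and no called difference among them changed sign. By construction, leaving out a 1 m library cannot move a value by more than that spread, so those alternatives are no check. They also cannot change the sign of a gene with both libraries on one side. Rny1, the call that was split, is not among the 198, and its sign differed between the 1 m libraries (0.19 without and -4.23 with LEV). Of 225 list medians, 33 took another sign, none of them for glucocorticoid response, immediate early, choroid plexus, red blood cell, striatal or oligodendrocyte precursor genes. At 3 tags, or 0.143 to 0.232 CPM, folds of low genes are bounds.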

Other observations

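Several genes went with the LEV label at 1 m on both sides. Cnr1, the cannabinoid receptor of presynaptic terminals, had 84.9 CPM in naive, 62.2 at 1 m and 163 with LEV, and 87.0 and 173 CPM on the infarcted side without and with LEV. The ribosomal pseudogene Rpl21-ps15 had 6.27, 9.01 and 35.0 CPM and, on the infarcted side, 7.68 and 37.9 CPM. It was called, and higher than naive in both libraries, but far more so with LEV. Its near-identical gene copies make its tags uncertain. Rny1 was 24.5 CPM on the infarcted side without LEV and 0.521 CPM with LEV, as on the other side, and 0.445 and 0.425 CPM on the non-infarcted side at 7 d without and with LEV. Mt2 had 272 and 762 CPM on the infarcted side without and with LEV.

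Git1, a scaffold of synaptic signalling, was high in a single library: it had 103 CPM in naive, 314 at 1 m and 123 with LEV, and 96.9 and 113 CPM on the infarcted side without and with LEV. It was called against naive (limma adjusted p = 0.0118), on the strength of that library.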
